A study of Homo sapiens with 16 samples.

Results

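The transcription of 10 human genes that act on the anaphase-promoting complex or beside it was examined after ionizing radiation (IR) and after the prostate cancer drug enzalutamide. The genes were taken by name for their role: CDC20 and FZR1, which activate the complex; UBE2C and UBE2S, its ubiquitin-conjugating enzymes; FBXO5 and MAD2L1, which inhibit it; PTTG1 (securin) and ESPL1 (separase); and BIRC5 (survivin) and CDCA8 (borealin) of the chromosomal passenger complex. Each matched 1 Ensembl identifier in both count tables, so they are 10 of 60605 identifiers. The rule goes by name and role, although the genes were proposed with earlier results of these data known, and all 10 passed the filter on low counts in every comparison.

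The anaphase-promoting complex (APC/C) is a ubiquitin ligase that starts anaphase by marking securin and cyclin B for destruction, which frees separase to cut the cohesin that holds sister chromatids together. Until every chromosome is attached to the spindle, checkpoint proteins including MAD2 hold its coactivator CDC20 in check, while the passenger complex corrects faulty attachments. FZR1 takes over from CDC20 at the end of mitosis, and many of these genes are known to be transcribed mainly in late S, G2 and M phase. LNCaP cells keep a functional p53, and p53 activation is known to lower the transcription of many such genes by way of p21 and the DREAM repressor complex.

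The libraries were made by PRO-seq, in which polymerases already engaged on DNA extend their RNA in isolated nuclei, so that reads report transcription under way and not the amount of messenger RNA. All came from LNCaP cells, an established line of human prostate cancer, grown in medium with serum. Batch 1 compared mock with 6 Gy of IR, with replicate numbers 1 and 2. It holds libraries named t1 and t2 under each number, which were summed because the labels do not say what they stand for. Batch 2 had 4 groups with replicate numbers 3 and 4: DMSO vehicle for 90 min, vehicle with 6 Gy, 10 µM enzalutamide for 90 min, and 10 µM enzalutamide with 6 Gy. In batch 2 the dose was given after 30 min of treatment, and cells were harvested after 60 more min. The protocol gives no separate time for batch 1. The labels do not say that replicates were separate cultures, so p-values measure only the spread between these samples, which may be technical.

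Total counts per sample were between 8022989 and 16851473 in batch 1 and between 10494563 and 19905824 in batch 2. CDKN1A (p21), the standard p53 target used as a check of the IR labels, rose by 3.32 on the log2 scale over both batches (SE 0.115, edgeR adjusted p = 2.72e-13). Of the LNCaP markers, FOLH1 was at 956 to 1390.3 library-scaled counts (CPM) per sample, TMPRSS2 at 270.4 to 490.0, HOXB13 at 127 to 185 and KLK2 at 66.1 to 251, while KLK3 ranged from 5.28 to 181 CPM. KLK3 and TMPRSS2, named here after their values were seen, were also called lower after IR over both batches, at -0.41 (SE 0.0938, edgeR adjusted p = 0.0115) and -0.30 (SE 0.0743, adjusted p = 0.0226), and their part in the results below was not tested. Markers of leukocytes, endothelium, fibroblasts and basal epithelium (6 genes) summed to between 11.5 and 16.1 CPM.

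The promoters are shown because most of these genes fell together after IR and because promoters of late cell cycle genes are known to carry a CHR element, bound by the DREAM complex, near a CCAAT box, bound by NF-Y. RefSeq's GRCh38.p14 table held promoters for 8 of the 10 genes, in 11 windows of 250 bases before a start site. It held none for UBE2C and BIRC5, which were called lower in every IR contrast, so the shares below leave them out. Below are 4 windows of genes that fell over both batches, then 2 of genes that did not pass the threshold. Windows of FBXO5, which fell, and of FZR1, which did not pass, are not printed. Each printed window is read 5′ to 3′ on the gene's strand. Capitals mark TTTGAA (CHR) and CCAAT on either strand, so that TTCAAA and ATTGG are matches on the other strand.
CDC20: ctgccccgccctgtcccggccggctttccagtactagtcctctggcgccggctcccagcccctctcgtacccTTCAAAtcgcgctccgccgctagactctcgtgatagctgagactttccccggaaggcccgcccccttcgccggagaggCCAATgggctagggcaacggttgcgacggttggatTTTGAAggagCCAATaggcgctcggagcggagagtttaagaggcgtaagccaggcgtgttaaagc
CDCA8: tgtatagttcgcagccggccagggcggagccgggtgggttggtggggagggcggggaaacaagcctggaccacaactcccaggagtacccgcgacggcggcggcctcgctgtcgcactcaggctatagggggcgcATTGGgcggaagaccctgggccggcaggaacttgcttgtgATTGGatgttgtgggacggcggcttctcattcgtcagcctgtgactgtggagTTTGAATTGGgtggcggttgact
ESPL1: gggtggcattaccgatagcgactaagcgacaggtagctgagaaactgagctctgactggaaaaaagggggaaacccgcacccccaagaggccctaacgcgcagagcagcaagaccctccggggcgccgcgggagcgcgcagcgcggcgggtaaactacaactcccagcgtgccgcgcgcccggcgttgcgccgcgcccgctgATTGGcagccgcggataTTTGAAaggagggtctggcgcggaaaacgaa
PTTG1: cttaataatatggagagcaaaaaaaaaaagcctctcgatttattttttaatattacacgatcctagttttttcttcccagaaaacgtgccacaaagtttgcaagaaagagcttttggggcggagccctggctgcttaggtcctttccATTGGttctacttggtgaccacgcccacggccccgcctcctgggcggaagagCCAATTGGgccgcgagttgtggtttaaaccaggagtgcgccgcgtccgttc
MAD2L1: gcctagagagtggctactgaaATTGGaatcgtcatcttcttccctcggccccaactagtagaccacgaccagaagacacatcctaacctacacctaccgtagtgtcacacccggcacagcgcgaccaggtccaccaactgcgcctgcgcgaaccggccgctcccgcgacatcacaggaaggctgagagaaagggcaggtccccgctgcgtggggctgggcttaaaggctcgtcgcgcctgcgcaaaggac
UBE2S: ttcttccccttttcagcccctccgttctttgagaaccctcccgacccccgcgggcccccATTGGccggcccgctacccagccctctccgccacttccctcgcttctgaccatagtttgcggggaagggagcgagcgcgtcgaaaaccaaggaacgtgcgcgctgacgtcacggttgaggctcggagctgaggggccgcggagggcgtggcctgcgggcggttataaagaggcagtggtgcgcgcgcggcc
The windows lie at chr1:43358731-43358980 (CDC20, plus strand), chr1:37692266-37692515 (CDCA8, plus), chr12:53268049-53268298 (ESPL1, plus), chr5:160421605-160421854 (PTTG1, plus), chr4:120066849-120067098 (MAD2L1, minus) and chr19:55407789-55408038 (UBE2S, minus). In CDCA8 the TTTGAA starts at position -23 from the start site and shares a base with an ATTGG. In ESPL1 it starts at -31, and CDC20 has one at -65 and one on the opposite strand at -178. PTTG1 has no TTTGAA in its window, but it has CCAAT on both strands in an overlapping CCAATTGG and a further ATTGG. The windows of MAD2L1 and UBE2S each have 1 CCAAT match and no TTTGAA. Over all windows, TTTGAA was found in 5 of 11 (45.5%), against 13.3% of 35116 promoters of that length in the table, and CCAAT in 8 of 11 (72.7%), against 32% of them. Both were found in 4 of 11, against 4.69% of all promoters. The 2 windows of PTTG1 overlap and hold the same CCAAT matches, so that promoter is counted more than once. The other 2 windows with TTTGAA belong to FZR1, where it starts at -226, and to a second start site of FBXO5. FZR1 did not pass the threshold and FBXO5 fell, so TTTGAA was found on both sides of the threshold. A match is a run of letters, and binding was not measured.

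Transcription of most of these genes was lower after irradiation, and CDC20, PTTG1 and UBE2C fell most. When the samples without enzalutamide were fitted together over both batches, 7 of 10 genes passed the threshold of an adjusted p of 0.05, all lower, against 1.66% of 29195 genes tested that were called lower. CDC20, PTTG1, UBE2C, CDCA8 and BIRC5 fell by between 41.8% and 55.7%, and ESPL1 and FBXO5 by 26% and 22.9%. FZR1, MAD2L1 and UBE2S did not pass. The median log2 fold change was -0.61 for the 10 genes and -0.02 for all genes tested. In bulk nuclei, fewer cells at the stage that transcribes these genes and less transcription per cell cannot be told apart.

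Within each contrast the same 5 genes, CDC20, UBE2C, PTTG1, CDCA8 and BIRC5, were called lower. In batch 1 they were 5 of 10, against 0.819% of all genes tested called lower, and the median over the 10 genes was -0.78. In vehicle-treated cells of batch 2 they were 5 of 10, against 0.353%, with a median of -0.51. In enzalutamide-treated cells FBXO5 joined them, making 6 of 10 against 0.293%, with a median of -0.58. In batch 2, same-numbered samples deviated together. With the replicate number as a block, 7 of 10 were called lower in vehicle cells (2.03% of all genes) and 8 of 10 in enzalutamide cells (1.45% of all genes). The genes added by the block were FBXO5 and ESPL1 in vehicle cells, and UBE2S and ESPL1 in enzalutamide cells.

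**Figure D1:**
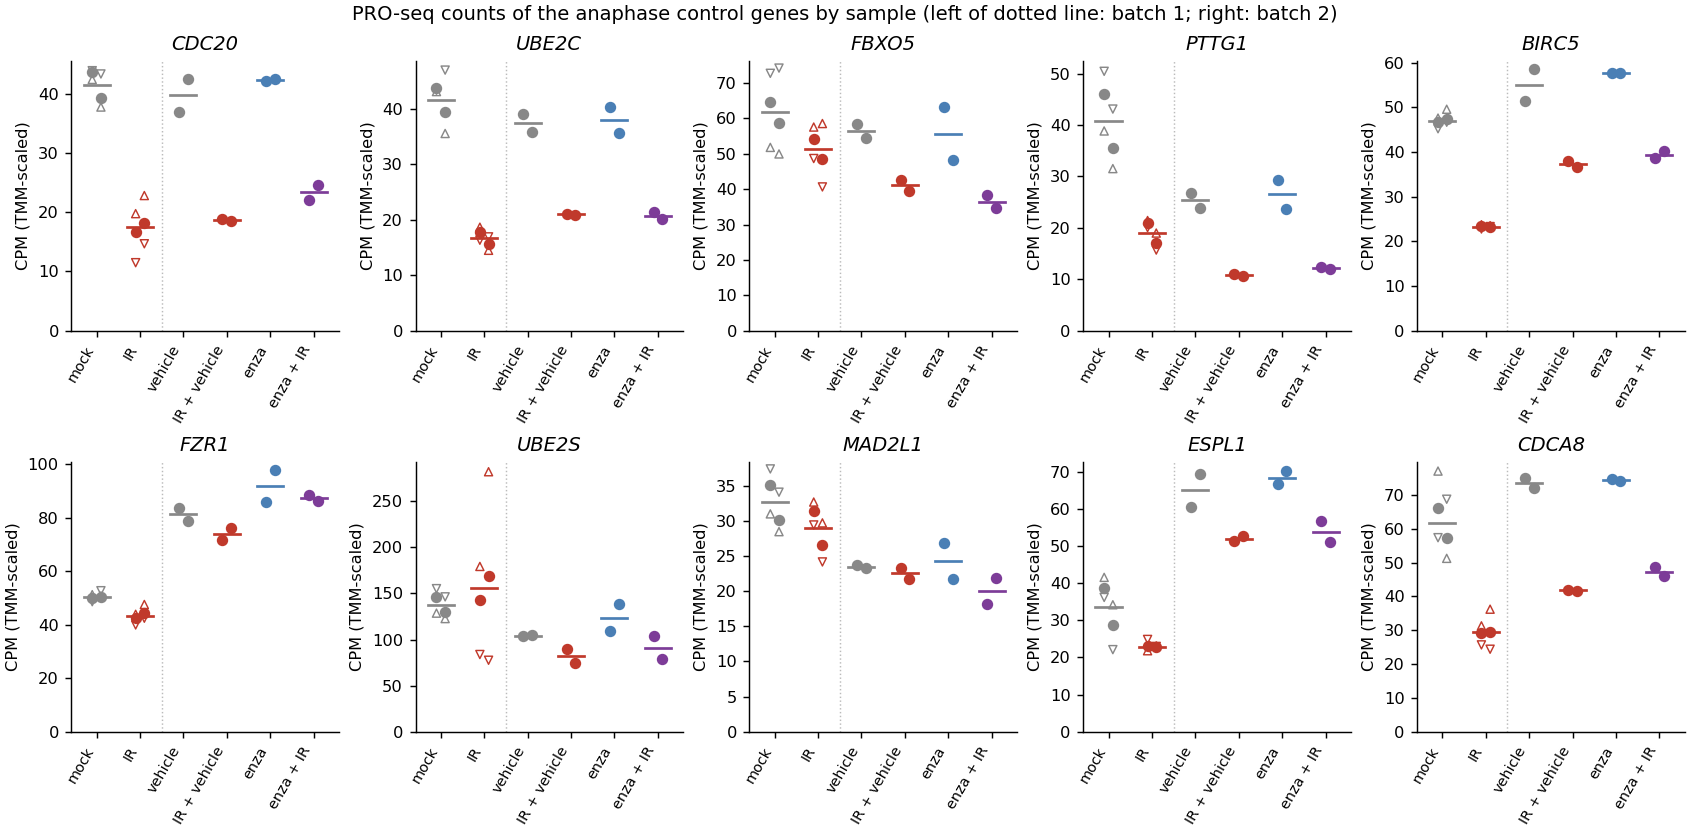
TMM-scaled CPM of the 10 genes (vertical axes) in each group (horizontal axes), batch 1 left and batch 2 right of the dotted line. Filled circles are samples, bars are group means, and open triangles are the batch 1 libraries (t1 upward, t2 downward). CDC20, UBE2C and PTTG1 are lower in every irradiated sample than in every non-irradiated sample of their batch, while the UBE2S libraries of irradiated batch 1 cells spread from 77.5 to 282.

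CDC20 (chr1:43358981-43363203, GRCh38), the coactivator that turns the APC/C on at anaphase, was at 43.8 and 39.3 CPM in the mock samples and at 16.7 and 18.3 CPM in the irradiated samples of batch 1. CPM are scaled within a batch and are not per gene length, so levels are compared neither between batches nor between genes. In batch 2 CDC20 was at 37.0 and 42.6 CPM with vehicle, 18.8 and 18.5 CPM with vehicle and IR, 42.2 and 42.6 CPM with enzalutamide, and 22.1 and 24.7 CPM with enzalutamide and IR. Every irradiated sample lay below every non-irradiated sample of its batch. Without IR the vehicle and enzalutamide samples overlapped, and with IR the enzalutamide samples were the higher ones. The log2 fold change was -1.24 in batch 1 (SE 0.122, adjusted p = 5.62e-05), -1.09 in vehicle cells (SE 0.113, adjusted p = 0.000145) and -0.86 in enzalutamide cells (SE 0.112, adjusted p = 0.00122). Over both batches it was -1.18 (SE 0.0861, adjusted p = 1.23e-08).

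FZR1 (CDH1, chr19:3506311-3538334), the coactivator of late mitosis and G1, passed in no contrast. It was at 50.1 and 50.5 CPM in mock and 42.4 and 44.4 CPM in irradiated samples of batch 1. In batch 2 it was at 83.7 and 78.7 CPM with vehicle, 71.5 and 76.1 CPM with vehicle and IR, 85.7 and 97.8 CPM with enzalutamide, and 88.5 and 86.2 CPM with both. The irradiated samples without enzalutamide were below their controls by small amounts, and those with enzalutamide overlapped theirs. Over both batches the log2 fold change was -0.18 (95% interval -0.33 to -0.04, adjusted p = 0.178). FZR1 overlaps MFSD12 on the opposite strand, and use of strand in counting is not given in the sources used here, so its counts are uncertain. MFSD12 itself was at -0.07 over both batches (adjusted p = 0.731), an average of values of opposite sign. It was at -0.26 in batch 1 (adjusted p = 0.318, or 0.0196 with the replicate block), where FZR1 was at -0.21. In vehicle cells MFSD12 was at 0.12 (adjusted p = 0.629).

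UBE2C (chr20:45812644-45816952), the enzyme that places the first ubiquitins on APC/C substrates, fell in every IR contrast. It was at 43.6 and 39.4 CPM in mock and 17.8 and 15.7 CPM in irradiated samples of batch 1. Batch 2 levels were 39.0 and 35.9 CPM with vehicle, 21.1 and 20.8 CPM with vehicle and IR, 40.3 and 35.7 CPM with enzalutamide, and 21.3 and 20.1 CPM with both. Irradiated and non-irradiated samples did not overlap, and within each the drug and vehicle samples did. Log2 fold changes were -1.31 in batch 1 (SE 0.124, adjusted p = 4.35e-05), -0.84 in vehicle cells (SE 0.111, adjusted p = 0.00119) and -0.88 in enzalutamide cells (SE 0.112, adjusted p = 0.000958). The fall in batch 1 exceeded that in vehicle cells of batch 2 by 0.50 on the log2 scale (SE 0.166), with an unadjusted p of 0.00739 and an adjusted p of 0.681.

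UBE2S (chr19:55399745-55407788), which lengthens the ubiquitin chains that UBE2C begins, was called in no contrast. It was at 146 and 129.8 CPM in mock and 143 and 169 CPM in irradiated samples of batch 1, groups that overlapped. Levels in batch 2 were 104 and 105 CPM with vehicle, 89.5 and 74.4 CPM with vehicle and IR, 109 and 138 CPM with enzalutamide, and 104 and 78.5 CPM with both. Here the irradiated samples were the lower ones. The response to IR, as a log2 fold change, was 0.18 in batch 1 (adjusted p = 0.686), -0.34 in vehicle cells (SE 0.140, adjusted p = 0.383) and -0.44 in enzalutamide cells (SE 0.140, adjusted p = 0.299, or 0.0161 with the replicate block). Without enzalutamide and IR replicate 4 the last value was -0.25, and without enzalutamide replicate 4 it was also over 1.5 times smaller. In vehicle cells it was -0.22 without vehicle and IR replicate 4. None of these passed. The 2 batches differed by 0.50 (SE 0.166, unadjusted p = 0.00717, adjusted p = 0.681).

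The batch 1 value of UBE2S is an average of opposite values in the t1 and t2 libraries. Among t1 libraries it was at 129 and 123 CPM in mock and 179 and 282 CPM after IR, and among t2 libraries at 155 and 146 CPM in mock and 83.7 and 77.5 CPM after IR. The t1 libraries alone gave a log2 fold change of 0.90 (SE 0.202, adjusted p = 0.00559) and the t2 libraries alone -0.90 (SE 0.111, adjusted p = 4.31e-05). With t2 libraries alone in batch 1, UBE2S was called lower over both batches (-0.62, SE 0.125, adjusted p = 0.0209). UBE2S overlaps RPL28, a ribosomal protein gene on the opposite strand, which was at 0.12 over both batches (SE 0.0748, adjusted p = 0.465). Its counts are uncertain for the same reason as those of FZR1.

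FBXO5 (EMI1, chr6:152970535-152983579), which blocks the APC/C from S phase until mitosis, fell over both batches and, among single contrasts, in enzalutamide cells. It was at 64.8 and 58.7 CPM in mock and 54.2 and 48.5 CPM in irradiated samples of batch 1. In batch 2 the gene was at 58.4 and 54.5 CPM with vehicle, 42.7 and 39.5 CPM with vehicle and IR, 63.1 and 48.2 CPM with enzalutamide, and 38.3 and 34.7 CPM with both. The irradiated samples were below the others in each contrast. Without IR the enzalutamide samples spread around the vehicle samples, and with IR they were the lower ones. Its log2 fold changes were -0.27 in batch 1 (SE 0.108, adjusted p = 0.339), -0.46 in vehicle cells (SE 0.122, adjusted p = 0.133, or 0.000936 with the replicate block) and -0.62 in enzalutamide cells (SE 0.124, adjusted p = 0.0322).

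Over both batches FBXO5 was at -0.37 (SE 0.0752, adjusted p = 0.00397). The call was lost without vehicle replicate 3 (-0.31, adjusted p = 0.0525), without vehicle and IR replicate 4 (-0.30, adjusted p = 0.0572) and with t1 libraries alone (-0.17, adjusted p = 0.496). In enzalutamide cells it was lost without enzalutamide replicate 3 (-0.40, adjusted p = 0.178) and without enzalutamide and IR replicate 3 (-0.67, adjusted p = 0.206) or 4 (-0.54, adjusted p = 0.432). It was lost as well without vehicle and IR replicate 3 (-0.62, adjusted p = 0.0598) or 4 (-0.61, adjusted p = 0.0624), and when only the 2 groups compared were fitted (-0.62, adjusted p = 0.0729). In batch 1 its t1 libraries were at 51.8 and 49.95 CPM in mock and 57.6 and 58.5 CPM after IR, and its t2 libraries at 72.8 and 74.2 CPM in mock and 48.7 and 40.6 CPM after IR. The t1 and t2 libraries thus moved in opposite directions here too, and that difference was not tested.

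MAD2L1 (MAD2, chr4:120055623-120066848), the checkpoint protein that binds CDC20, was at 35.1 and 30.2 CPM in mock and 31.5 and 26.5 CPM in irradiated samples of batch 1. Batch 2 samples were at 23.8 and 23.3 CPM with vehicle, 23.4 and 21.7 CPM with vehicle and IR, 26.9 and 21.7 CPM with enzalutamide, and 18.2 and 21.9 CPM with both. Irradiated samples overlapped their controls in all 3 contrasts. In batch 1 the t1 libraries alone gave a log2 fold change of 0.10 (adjusted p = 0.71) and the t2 libraries alone -0.44 (SE 0.141, adjusted p = 0.0209), which passed. Over both batches it was -0.13 (95% interval -0.31 to 0.06, adjusted p = 0.512). In enzalutamide cells it was -0.28 (95% interval -0.58 to 0.02, adjusted p = 0.554).

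PTTG1 (chr5:160421855-160428744), the securin that holds separase inactive until the APC/C destroys it, fell in every IR contrast as well. It was at 46.1 and 35.6 CPM in mock and 20.9 and 17.1 CPM in irradiated samples of batch 1. In batch 2 values were 26.9 and 23.8 CPM with vehicle, 11.1 and 10.6 CPM with vehicle and IR, 29.4 and 23.6 CPM with enzalutamide, and 12.4 and 12.1 CPM with both. The irradiated samples were all below the lowest non-irradiated sample of their batch. On the log2 scale PTTG1 changed by -1.11 in batch 1 (SE 0.150, adjusted p = 0.000794), -1.22 in vehicle cells (SE 0.142, adjusted p = 0.000389) and -1.12 in enzalutamide cells (SE 0.141, adjusted p = 0.00088). The difference between batches was 0.09, with a 95% interval from -0.35 to 0.52.

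ESPL1 (chr12:53268299-53293638), the separase that securin restrains, was called lower over both batches but in no single contrast. It was at 38.8 and 28.7 CPM in mock and 23.0 and 22.9 CPM in irradiated samples of batch 1. Batch 2 gave 60.6 and 69.5 CPM with vehicle, 51.3 and 52.6 CPM with vehicle and IR, 66.6 and 70.2 CPM with enzalutamide, and 56.7 and 51.0 CPM with both. No irradiated sample reached the lowest control of its contrast, but the mock samples were far apart. The response to IR was -0.55 on the log2 scale in batch 1 (SE 0.144, adjusted p = 0.0715), -0.33 in vehicle cells (SE 0.0977, adjusted p = 0.207, or 0.0189 with the replicate block) and -0.34 in enzalutamide cells (SE 0.0984, adjusted p = 0.213, or 0.0161 with the block). Over both batches it was -0.43 (SE 0.0911, adjusted p = 0.00576). That call was lost with t2 libraries alone (-0.32, adjusted p = 0.163), and the batch 1 value was -0.33 without mock replicate 1 (adjusted p = 0.416) and passed without mock replicate 2 (-0.76, adjusted p = 3.38e-05).

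BIRC5 (chr17:78214253-78225635), the subunit that brings the passenger complex to centromeres, was at 46.6 and 47.4 CPM in mock and 23.4 and 23.2 CPM in irradiated samples of batch 1. Samples of batch 2 had 51.5 and 58.6 CPM with vehicle, 38.0 and 36.6 CPM with vehicle and IR, 57.8 and 57.7 CPM with enzalutamide, and 38.6 and 40.3 CPM with both. Irradiated samples lay below all others of their batch. Log2 fold changes were -1.01 in batch 1 (SE 0.109, adjusted p = 0.00012), -0.56 in vehicle cells (SE 0.0957, adjusted p = 0.0091) and -0.55 in enzalutamide cells (SE 0.0963, adjusted p = 0.0127). The difference between batches was -0.48 (SE 0.149, unadjusted p = 0.00507, adjusted p = 0.618). In vehicle cells the call was lost without vehicle replicate 4 (-0.46, adjusted p = 0.16) and without vehicle and IR replicate 3 (-0.59, adjusted p = 0.0781) or 4 (-0.54, adjusted p = 0.129). In enzalutamide cells it was lost without enzalutamide and IR replicate 3 (-0.49, adjusted p = 0.27) or 4 (-0.58, adjusted p = 0.126). Each of these fits left 1 sample in a group.

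CDCA8 (chr1:37692516-37709719), the passenger subunit borealin, was at 66.1 and 57.3 CPM in mock and 29.2 and 29.6 CPM in irradiated samples of batch 1. In batch 2 it stood at 75.2 and 72.0 CPM with vehicle, 42.1 and 41.7 CPM with vehicle and IR, 74.7 and 74.1 CPM with enzalutamide, and 48.8 and 46.0 CPM with both. Every irradiated sample was lower than all non-irradiated samples of its batch. In batch 2 the samples with enzalutamide and IR lay above those with vehicle and IR. The log2 fold change was -1.07 in batch 1 (SE 0.111, adjusted p = 9.48e-05), -0.81 in vehicle cells (SE 0.0861, adjusted p = 0.000176) and -0.65 in enzalutamide cells (SE 0.0862, adjusted p = 0.00132). The last call was lost without enzalutamide and IR replicate 4 (-0.61, adjusted p = 0.053).

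**Figure D2:**
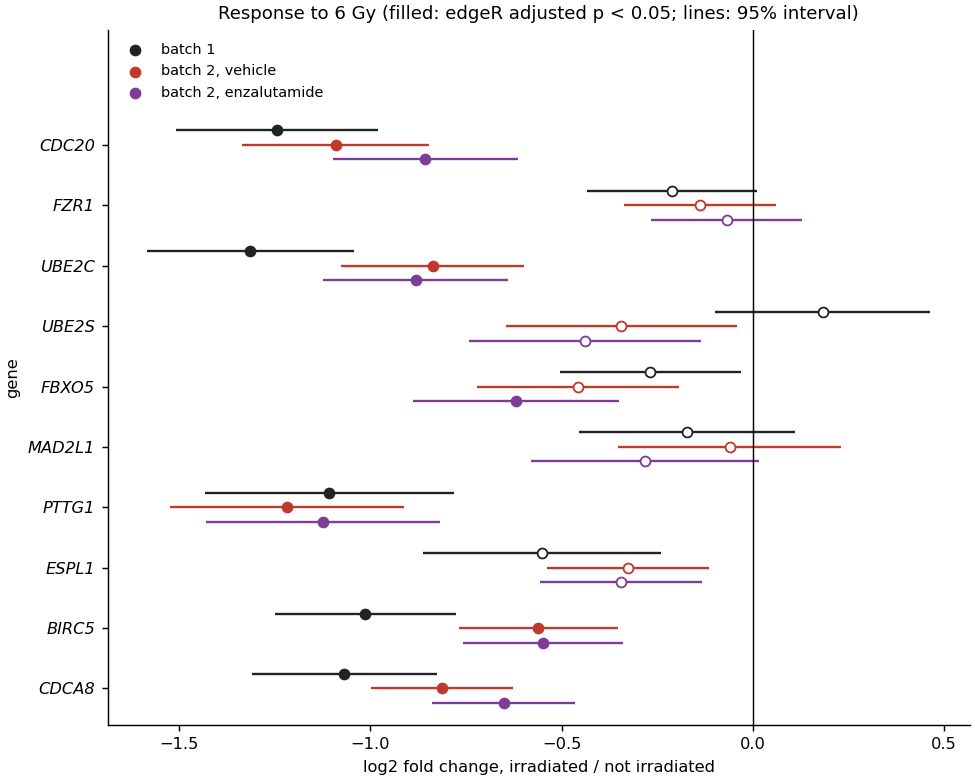
Log2 fold change after 6 Gy (horizontal axis) of the 10 genes (vertical axis) in batch 1, in vehicle cells and in enzalutamide cells of batch 2. Lines are 95% intervals and filled points passed an edgeR adjusted p of 0.05. CDC20, UBE2C, PTTG1, BIRC5 and CDCA8 are filled in all 3 contrasts, between -0.55 and -1.31, and UBE2S lies on opposite sides of 0 in the 2 batches.

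Whether the response differed between the experiments was tested directly. None of the 10 genes passed for the difference between batches, against 0.106% of all genes tested in either direction, and DESeq2 called none as well. At an unadjusted p of 0.05 there were 3 (UBE2C, UBE2S and BIRC5), where 5.66% of all genes reached it. UBE2C and BIRC5 had the larger fall in batch 1, and UBE2S had a positive value in batch 1 and a negative one in batch 2, neither past the threshold. With t2 libraries alone in batch 1, 4 of the 10 were called for this difference, among 5646 of all genes: CDC20 (-0.61, adjusted p = 0.0318), UBE2C (-0.59, adjusted p = 0.0215), UBE2S (-0.56, adjusted p = 0.0151) and CDCA8 (-0.51, adjusted p = 0.0269). With t1 libraries alone UBE2S was called (1.22, adjusted p = 0.0209), among 452 of all genes. BIRC5 was then at -0.49 with t1 (adjusted p = 0.115) and -0.43 with t2 (adjusted p = 0.0665), and UBE2C at -0.40 with t1 (adjusted p = 0.267). The DMSO given in batch 2 and the batch itself cannot be told apart in this contrast.

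No gene of the 10 was called for enzalutamide itself. Averaged over IR, 0 of 10 passed edgeR's test, against 0.0628% of all genes called in either direction, and DESeq2 also called 0. CDC20 and FZR1 reached an unadjusted p of 0.05, where 6.21% of all genes did. FZR1 was at 0.21 (95% interval 0.08 to 0.34, adjusted p = 0.551) and CDC20 at 0.20 (95% interval 0.03 to 0.37, adjusted p = 0.769). The median over the 10 genes was 0.08, the lowest value was -0.09 (FBXO5, 95% interval -0.27 to 0.09), and UBE2C was at 0.01 (95% interval -0.15 to 0.16).

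The response to IR was also compared between drug and vehicle as an interaction. None of the 10 genes passed edgeR's test, and none reached an unadjusted p of 0.05, where 1.2% of all 28651 genes tested did. The call rate over all genes was 0%, and DESeq2 called none of the 10. The interaction, in which a positive value means a smaller fall with enzalutamide, was 0.23 for CDC20 (95% interval -0.11 to 0.58), 0.10 for PTTG1 (95% interval -0.34 to 0.53) and -0.04 for UBE2C (95% interval -0.38 to 0.30). It was 0.16 for CDCA8 (95% interval -0.10 to 0.42) and 0.01 for BIRC5 (95% interval -0.28 to 0.31). The lowest was that of MAD2L1, -0.22 (95% interval -0.64 to 0.20). These intervals include differences in either direction, and a p that misses the threshold does not show that the responses were alike.

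**Figure D3:**
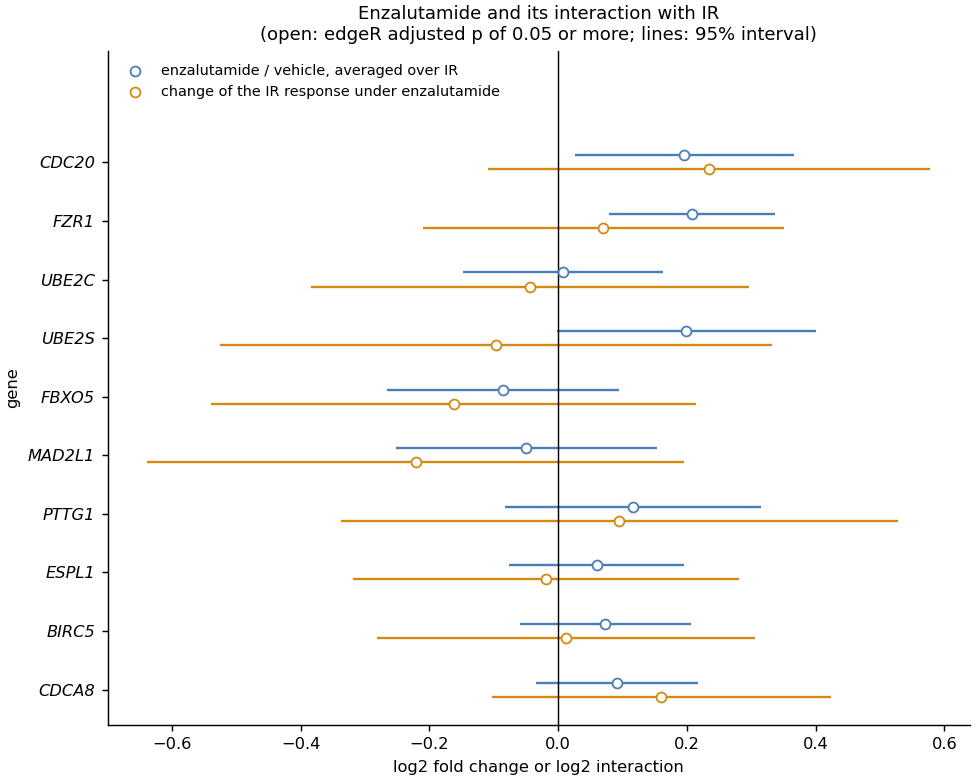
Log2 fold change of enzalutamide over vehicle averaged over IR, and change of the IR response under enzalutamide (horizontal axis), for the 10 genes (vertical axis). Points are open because none passed an adjusted p of 0.05, and lines are 95% intervals. The drug effect lies between -0.09 and 0.21 and the interaction between -0.22 and 0.23.

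Genes that work with these 10 were counted by list. The other 2 passenger subunits, the kinase AURKB and its scaffold INCENP, were called lower in every IR contrast, at -0.88 (SE 0.118, adjusted p = 4.92e-05) and -0.84 (SE 0.0817, adjusted p = 6.18e-07) over both batches. All 4 passenger genes were thus lower. In the spindle checkpoint list (7 genes) 4 were lower and 1 higher over both batches, with a median of -0.37. The checkpoint genes BUB1 (-1.17, adjusted p = 1.87e-08), TTK (-0.82, adjusted p = 3.35e-06) and BUB1B (-0.67, adjusted p = 1.35e-05) fell with BUB3 (-0.37, adjusted p = 0.00236). TRIP13, which remodels MAD2, rose (0.26, adjusted p = 0.0389), where 2.39% of all genes were called higher. BUB1, TTK and BUB1B were the 3 called in each single contrast. With the replicate block BUB3 was also called lower in vehicle cells (adjusted p = 0.0198) and in enzalutamide cells (adjusted p = 0.0228), and TRIP13 higher in vehicle cells (adjusted p = 0.0177). With t2 libraries alone in batch 1, 1 of the 7 was called lower over both batches and 0 higher, and with t1 libraries alone 4 and 0.

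Of 20 genes whose proteins are APC/C substrates, 13 were lower and 0 higher over both batches, with a median of -0.59. The mitotic kinase AURKA was at -1.47 (SE 0.101, adjusted p = 5.3e-09) and PLK1 at -1.25 (SE 0.0976, adjusted p = 2.74e-08). CCNB1, the cyclin B that is destroyed beside securin, was at -1.21 (SE 0.107, adjusted p = 1.7e-07), CDCA3 at -1.21 and HMMR at -1.19. There were 12 lower in batch 1, 9 in vehicle cells and 11 in enzalutamide cells. With the replicate block, CDC6, a licensing factor, was called higher over both batches (0.25, adjusted p = 0.0325, or 0.131 without the block). In vehicle cells the block gave 12 lower and 2 higher, CDC6 (adjusted p = 0.00279) and CDC25A (adjusted p = 0.0172), and in enzalutamide cells 13 lower and 0 higher. Among all genes the block called 733 of 28651 higher in vehicle cells and 1038 of 29195 over both batches.

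The subunits of the APC/C itself had a median near 0 over both batches. Of 14 core subunits, 1 was lower over both batches (CDC27, -0.27, SE 0.0754, adjusted p = 0.0437) and 0 in the single contrasts, with a median of 0.01. The CDC27 call was absent with RLE size factors, with DESeq2, without the filter on low counts and with t2 libraries alone. With the replicate block CDC27 was also called lower in batch 1 (adjusted p = 0.0152). In batch 1, t2 libraries alone called 3 of the 14 higher and 4 lower, and t1 libraries alone 3 higher and 1 lower. Of 11 cohesin genes and protectors, 2 were lower over both batches, both shugoshins that guard centromeric cohesin: SGO2 (-0.78, adjusted p = 5.09e-06) and SGO1 (-0.35, adjusted p = 0.013). Without the filter, and with t1 or t2 libraries alone, 1 of the 11 was called lower. In enzalutamide cells 0 were called, or 2 with the replicate block, SGO2 (adjusted p = 0.000172) and RAD21, a core subunit of cohesin (adjusted p = 0.0108). The median of that list was -0.01, and its sign changed with RLE size factors, with DESeq2 and without the filter. It moved further with the batch 1 libraries used, to -0.26 with t1 alone and 0.21 with t2 alone. In batch 1 itself, t1 libraries alone called 4 of the 11 lower and 0 higher, and t2 libraries alone 2 lower and 7 higher. The lists were written from general knowledge and describe these samples only. The percentages of all genes called, given above for each contrast, apply to them as well.

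**Figure D4:**
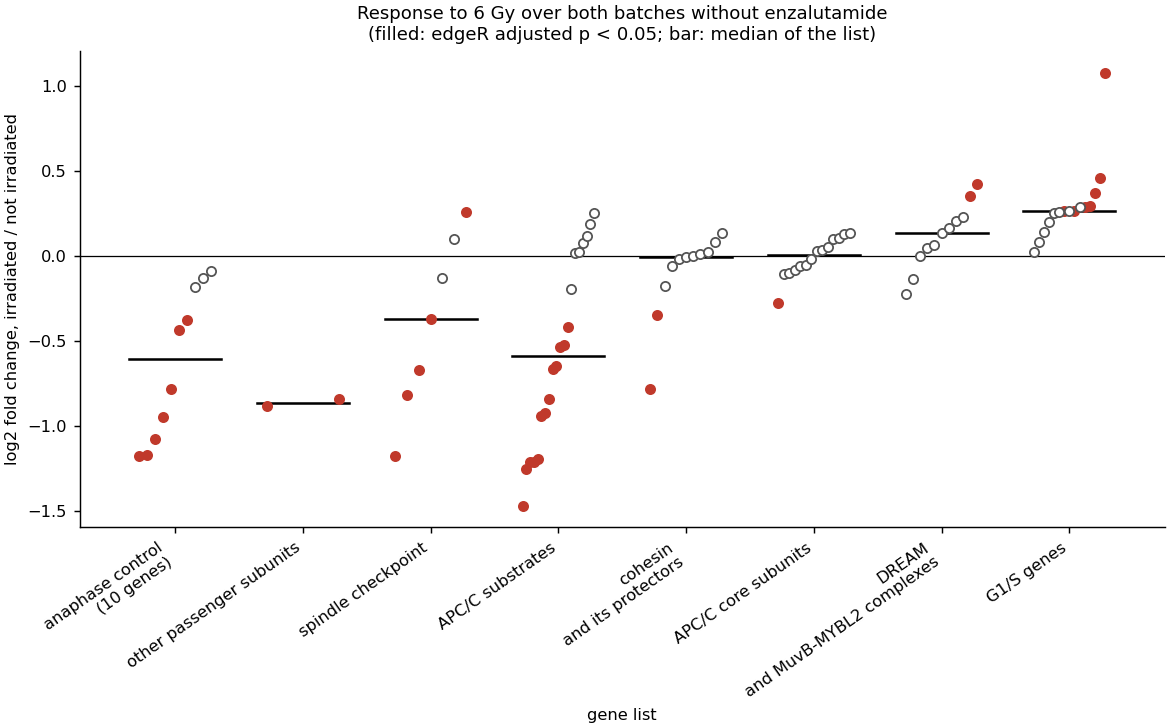
Log2 fold change after 6 Gy over both batches without enzalutamide (vertical axis) for each gene of 8 lists (horizontal axis). Filled points passed an edgeR adjusted p of 0.05 and bars are list medians. The anaphase control genes, other passengers, checkpoint genes and APC/C substrates have medians between -0.37 and -0.86, the APC/C core has a median of 0.01, and the G1/S list has 0.26.

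Genes beside these 10 on the chromosome were tested in the same fit. Over both batches 0 of 16 tested neighbours or overlapping genes passed edgeR's test, against 4.05% of all genes called in either direction, with 1 (TEKTIP1) at an unadjusted p of 0.05. Their log2 fold changes were between -0.27 and 0.12. CDC20-DT, a non-coding RNA gene 307 bases from CDC20, was at -0.11 (95% interval -0.35 to 0.13, adjusted p = 0.693), and ELOVL1, 197 bases beyond the other end of CDC20, at -0.11 (95% interval -0.29 to 0.08). C1orf109, 273 bases from CDCA8, was at -0.08 (95% interval -0.25 to 0.10). SLU7 beside PTTG1 was at -0.02 and DNTTIP1 beside UBE2C at -0.00. Whether each gene differed from its neighbour was not tested.

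**Figure D5:**
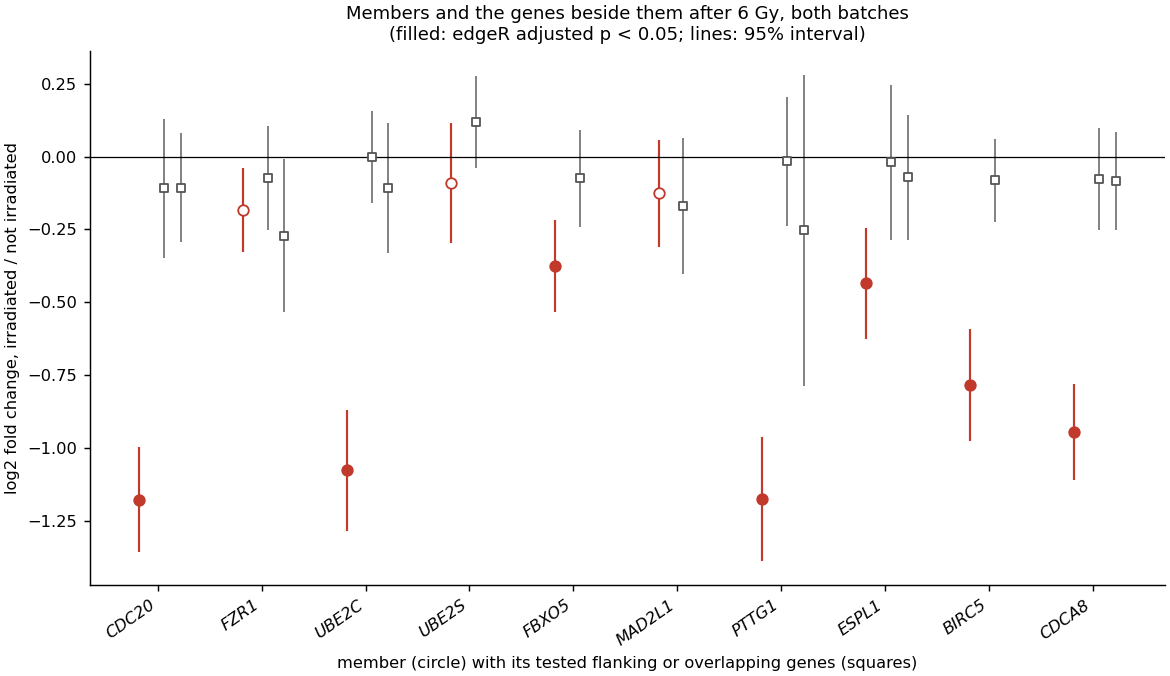
Log2 fold change after 6 Gy over both batches without enzalutamide (vertical axis) for each of the 10 genes (circles) and its tested flanking or overlapping genes (squares), with 95% intervals. Filled circles passed an edgeR adjusted p of 0.05. The squares lie between -0.27 and 0.12, while the circles reach -1.18.

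For the 3 leading genes, the genes with the most similar pattern were ranked by Pearson's correlation of log2 CPM centred within batch, over 12 samples and among 18685 genes with a mean of at least 50 counts. For CDC20 they were KIF18B (0.988), AURKA (0.986) and GTSE1 (0.986). For PTTG1 they were CEP55 (0.988), HMGB2 (0.988) and KIF11 (0.987). For UBE2C they were FAM72C (0.994), KNSTRN (0.994) and LRP4-AS1 (0.993). FAM72C has near-identical paralogs and LRP4-AS1 is antisense, so their counts are uncertain. The 12 points are the same libraries for every gene and fall into irradiated and non-irradiated samples, and no test was made. Reads of near-identical copies could also be split. PTTG2 had 0 to 14 counts per library, PTTG3P 0 to 3 and the pseudogene UBE2CP5 7 to 88.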

How the data were processed

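PRO-seq was measured in 16 LNCaP libraries of 2 batches. The authors deposited 1 table of raw read counts per Ensembl gene for each batch, as judged from the values. Per the submitters' processing notes, cutadapt 1.8.1, Bowtie2 2.4.4, SAMtools 1.9 and hg38 were used. The counting tool, annotation, use of strand and duplicate removal are not given in the sources used here. The 2 tables list the same 60605 identifiers, of which 60463 (99.77%) matched a gene name.

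Counts of t1 and t2 under a replicate number were summed. Tests used edgeR 4.0.16 in R 4.3.3 (filterByExpr defaults, TMM factors, glmQLFit and glmQLFTest) on all genes of a fit, with two-sided p-values adjusted by the Benjamini-Hochberg method over all genes tested and a threshold of 0.05. The 4 groups of batch 2 shared 1 model with IR, enzalutamide and their interaction, and dropping the interaction gave the drug effect averaged over IR. IR over both batches had batch as a covariate and left out samples with enzalutamide. An SE is the fold change divided by the root of F, and 95% intervals use the t distribution. The steps were tested on simulated counts.

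Replicate numbers are shared between groups of a batch. In batch 2 the replicate differences of all 6 pairs of groups correlated across genes (Pearson's r between 0.239 and 0.444), so the numbers were taken to pair the samples there, and a fit with the number as a block is given where it changes a call of the 10 genes or moves a list's count by over 1.5 times. Other alternatives were RLE size factors, total counts, no filter, DESeq2 1.42.0, t1 or t2 alone, only the groups compared, and leaving out each replicate.

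The 10 genes and the gene lists were chosen with earlier results of these data known, so no count over them is independent evidence. All 10 are described whatever their values. Beside them the text names up to 5 genes of each other list with the largest change past the threshold, AURKB, INCENP, CDKN1A, the genes most like CDC20, PTTG1 and UBE2C, and flanking genes in RefSeq (GRCh38.p14). Overlapping genes and near-identical copies are named as limits on the counts. CPM are counts relative to the TMM-scaled library size, computed within a batch. Some planned marker results are not reported here.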

Additional observations from a re-analysis of the deposited data

Results flagged for a closer look

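For 2 of the 10 genes the t1 and t2 libraries of batch 1 lay on opposite sides of their mock libraries, with every irradiated t1 library above both mock t1 libraries and every irradiated t2 library below both mock t2 libraries. UBE2S had a log2 fold change of 0.90 in the t1 libraries and -0.90 in the t2 libraries. FBXO5 had 0.22 in the t1 libraries (adjusted p = 0.314) and -0.73 in the t2 libraries (adjusted p = 0.000239). MAD2L1 also differed in sign, at 0.10 in the t1 libraries (adjusted p = 0.71) and -0.44 in the t2 libraries (adjusted p = 0.0209). The difference between t1 and t2 was not tested, and the labels do not say what separates them. CDC20, UBE2C, PTTG1, BIRC5 and CDCA8 were called lower in t1 and in t2 libraries alone, for CDC20 at -0.88 and -1.70. Of all genes, t1 libraries alone called 3995 in either direction in batch 1 and t2 libraries alone 9800. Opposite calls were also seen outside the 10 genes. Of 11 cohesin genes and protectors, t1 libraries alone called 4 lower in batch 1, and t2 libraries alone 7 higher and 2 lower. The share of all genes that lay on opposite sides in t1 and t2 was not counted, so the split cannot be called particular to UBE2S and FBXO5.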

How the results depend on the processing

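For the 10 genes, 899 of the recomputed values kept their side of the threshold, and any change of sign among them was within 1 SE. Of the others, 22 became significant and 16 lost significance. A further 11 that passed no threshold changed sign with a shift of over 1 SE, and 2 reversed. The 2 were UBE2S with t2 libraries alone, at -0.90 in batch 1 and -0.56 for the difference between batches. With t2 libraries alone 8 of 10 genes were called in batch 1, among 9800 of all genes. For the difference between batches t2 libraries alone gave 4, among 5646 of all genes, and t1 libraries alone gave 1, among 452. Leaving out 1 replicate gave between 5 and 6 of the 10 in batch 1, 4 and 6 in vehicle cells, 3 and 6 in enzalutamide cells (3 without enzalutamide and IR replicate 4), and 6 and 7 over both batches. A lone sample left in a group is then assumed to vary like the others. Scaling moved the median of all genes by under 0.1.

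Counts over all genes moved more. Without the filter they were 1157 in batch 1 (731 as reported), 624 in vehicle cells (314), 556 in enzalutamide cells (263), 230 for enzalutamide averaged over IR (18), 32 for the interaction (0) and 119 for the difference between batches (31). DESeq2 gave 54 for enzalutamide. With the replicate block they were 2332, 1315, 951, 272, 1 and 96 in that order, and 1954 over both batches (1182). The t1 libraries alone gave 3995 in batch 1 and 452 for the difference, and the t2 libraries alone gave 9800 in batch 1, 5646 for the difference and 657 over both batches. Leaving out 1 replicate gave 587 to 1509 in batch 1, 161 to 511 in vehicle cells, 139 to 434 in enzalutamide cells, 7 to 36 for enzalutamide, 0 to 4 for the interaction, 897 to 1208 over both batches and 21 to 45 for the difference. The cause was not tested.

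Batch 1 has only 1 pair of groups, with an r of 0.327 that lies within the range of batch 2. Its replicate numbers were not taken as pairs in the batch 1 contrast. The block over both batches and for the difference between batches did include them. In the batch 1 contrast the block added FBXO5 (adjusted p = 0.0232) and ESPL1 (adjusted p = 0.000135) to those called lower. In batch 2 and over both batches the block changed no other call of the 10 genes than those given. With 2 replicates a group, a p that misses the threshold does not show that FZR1, MAD2L1 or UBE2S did not change.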

Other observations

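Part of a list of G1/S genes rose after IR. Of 15 G1/S genes, 7 were higher and 0 lower after IR over both batches, with a median of 0.26, and 2.39% of all genes tested were called higher. TYMS, which makes thymidylate for DNA synthesis, rose by 1.08 (SE 0.0789, adjusted p = 1.23e-08). E2F1, the transcription factor that drives S phase entry, rose by 0.46 (SE 0.0803, adjusted p = 0.000999), and CDT1, a licensing factor, by 0.37 (adjusted p = 0.0394). MCM5 was at 0.29 (adjusted p = 0.0397) and MCM10 at 0.29 (adjusted p = 0.0499). TYMS was the 1 called in every single contrast, with 1.19 in batch 1, 0.99 in vehicle cells and 0.98 in enzalutamide cells. With total counts 6 of the 15 were called over both batches, without the filter 9, and with t1 or t2 libraries alone 4. With the replicate block 9 were called higher over both batches, 11 in vehicle cells (3 without the block), 3 in enzalutamide cells (1 without) and 6 in batch 1 (1 without). Among all genes the block called 1038 of 29195 higher over both batches (697 without it) and 733 of 28651 in vehicle cells (213 without). It called 536 of 28651 higher in enzalutamide cells (179 without) and 1234 of 25889 in batch 1 (519 without).

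Of 11 genes for the DREAM complex and its activating counterpart with MYBL2, 2 were higher and 0 lower over both batches. RBL2 (p130), the pocket protein of DREAM, rose by 0.43 (SE 0.102, adjusted p = 0.0168), and MYBL2 by 0.35 (SE 0.0755, adjusted p = 0.00669). Without the replicate block 0 of the 11 were called in vehicle cells and 0 in enzalutamide cells, and 1 was higher in batch 1. With the replicate block 3 were higher over both batches, 2 in vehicle cells, and 2 in enzalutamide cells, where E2F5 was called lower (-0.35, adjusted p = 0.033). The counts of all genes called higher, given for the G1/S genes, apply here as well. With t1 libraries alone in batch 1, 0 of the 11 were called over both batches, and the median was 0.05 (0.14 as reported). With t2 libraries alone 2 were higher, and the median was 0.30.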
